A study of Mus musculus with 12 samples.

Results

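The genes described here are 10 transporters that carry bile acids and other organic anions across the membranes of hepatocytes: Slc10a1, Slco1a1, Slco1a4, Slco1b2 and Slc22a7 (uptake from blood), Abcb11, Abcb4 and Abcc2 (export into bile), and Abcc3 and Abcc4 (efflux back to blood). A probe belonged to the set where its transcript accession matched one of these symbols in a RefSeq gene table. On the array 12 of 41174 distinct probes did, and they read 9 of the 10 genes. No probe mapped to Slco1b2, so it has no value here. Two-colour Agilent arrays read liver RNA of C57BL/6 mice that all carried MycF/F alleles, in which Cre recombinase can remove the floxed part of the gene for the transcription factor Myc. One genotype had MycF/F alone and the other had ERT2-Cre as well, a Cre fused to a modified estrogen receptor so that it acts once a ligand such as tamoxifen is given. Mice of both genotypes received, for 2 days, either control diet or a diet with 0.1% Wy-14643, an agonist of the nuclear receptor PPARα. Of the 12 arrays, MycF/F mice account for 4, namely 1 on control diet, whose RNA is labelled as pooled liver, and 3 given Wy-14643. The other 8 are MycF/F,ERT2-Cre, with 4 on each diet. The labels give no promoter for the Cre, no tamoxifen dosing, no age and no sex. They do not say that the arrays of a group are separate animals, so p-values measure the spread between these samples, which may be technical.

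Bile acids are made in hepatocytes, pumped across the canalicular membrane into bile, taken back up in the intestine and returned in portal blood, where hepatocytes clear them again. SLC10A1 (NTCP) takes up conjugated bile acids together with sodium, the SLCO1 (OATP) proteins take up bile acids, hormones and drugs without sodium, and SLC22A7 (OAT2) takes up smaller organic anions. ABCB11 (BSEP) is the bile salt export pump, ABCB4 (MDR2 in the mouse) flips phosphatidylcholine into bile, and ABCC2 (MRP2) exports glutathione and glucuronide conjugates. ABCC3 and ABCC4 (MRP3 and MRP4) sit on the membrane facing the blood and are known to rise when bile flow is blocked. PPARα binds with RXR to direct repeats of the hexamer AGGTCA, and FXR, the bile acid receptor, binds with RXR to inverted repeats of it.

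The sequence before the transcript start is shown for the neighbouring genes Slco1a1 and Slco1a4, both of which fell strongly on Wy-14643, and for Abcb11 and Abcb4, canalicular exporters of bile salt and phospholipid whose values moved in opposite directions. Each line is the 250 bases before the start in RefSeq (GRCm38.p6), written 5′ to 3′ on the gene's strand, with each AGGTCA on either strand in capitals (TGACCT where it lies on the opposite strand).
Slco1a1 (chr6:141946963-141947212, minus strand): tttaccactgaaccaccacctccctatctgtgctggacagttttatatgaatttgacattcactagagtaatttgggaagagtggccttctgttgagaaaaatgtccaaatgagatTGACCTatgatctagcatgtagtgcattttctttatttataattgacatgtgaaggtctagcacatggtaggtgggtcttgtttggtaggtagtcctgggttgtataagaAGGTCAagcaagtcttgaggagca
Slco1a4 (chr6:141856221-141856470, minus strand): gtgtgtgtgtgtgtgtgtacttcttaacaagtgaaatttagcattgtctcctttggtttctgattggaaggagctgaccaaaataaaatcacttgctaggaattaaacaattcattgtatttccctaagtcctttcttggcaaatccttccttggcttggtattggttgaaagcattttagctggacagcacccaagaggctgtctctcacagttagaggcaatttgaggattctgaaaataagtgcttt
Abcb11 (chr2:69342617-69342866, minus strand): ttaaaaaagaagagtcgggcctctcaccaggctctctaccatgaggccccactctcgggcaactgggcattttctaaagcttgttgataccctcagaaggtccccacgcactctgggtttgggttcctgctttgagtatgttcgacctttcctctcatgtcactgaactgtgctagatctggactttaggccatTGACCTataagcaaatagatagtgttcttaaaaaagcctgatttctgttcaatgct
Abcb4 (chr5:8893471-8893720, plus strand): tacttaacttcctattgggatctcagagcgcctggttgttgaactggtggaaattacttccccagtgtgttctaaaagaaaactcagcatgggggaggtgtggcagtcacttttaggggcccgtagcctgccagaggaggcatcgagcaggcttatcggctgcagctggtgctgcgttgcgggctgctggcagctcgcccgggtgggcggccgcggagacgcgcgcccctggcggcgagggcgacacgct
The RefSeq table held 10 such windows for 8 of the 10 genes, with 2 starts each for Slc10a1 and Abcc4. AGGTCA occurred in 5 of the 10 windows, those of Slc10a1 (at 1 of its 2 starts), Slco1a1, Slco1b2, Abcb11 and Abcc2, and in 14% of all 32851 windows of the same length in the table. The Slco1a1 window held it at 2 places, the nearer one at -24 to -19 from the start, and the windows of Slco1a4 and Abcb4 held none. The direct repeat, AGGTCA followed by any 1 base and AGGTCA again, contains the hexamer, and it occurred in no window of these genes and in 0.0335% of all windows. The inverted repeat, AGGTCA followed by any 1 base and TGACCT, occurred in none of them either and in 0.00609% of all. Both strands were searched for each, for exact letters only. A repeat that differs by a base, such as aggccatTGACCT in the Abcb11 window, was therefore not counted. How often such near matches occur in other windows was not examined. TGACNNNGC, the core of the antioxidant response element, occurred in 3 of the 10 windows (Abcc2 and both starts of Abcc4) and in 10.2% of all windows, without overlapping AGGTCA. A match is a run of letters, not a shown binding site. In the RefSeq gene order Slco1b2, Slco1a4, Slco1a1, Slco1a6 and Slco1a5 lie in this order on chromosome 6, with genes known only by Gm numbers between some of them.

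Values are log2 ratios of the sample (Cy5) to a pooled liver reference (Cy3) that was the same kind of RNA on all 12 arrays. A value of 0 equals the reference, and a difference of 1 between groups is a 2-fold change. The median array spot was 2.64 to 4.82 times its background in Cy5, 64.6% to 77.1% of spots were well above background, and no Cy5 spot was saturated. The software flagged 5.47% to 8.35% of spots as outliers on slide 1, against 0.904% to 1.84% on slides 2 and 3, and flagged spots were left out. The number of arrays limits the precision. Known PPARα targets checked the diet labels: all 6 of the list rose with the diet in MycF/F,ERT2-Cre livers, among them Cyp4a14 by 4.65 (SE 0.35) and Cyp4a10 by 4.45 (SE 0.18), and all 5 that could be tested rose in MycF/F livers, led by Acot1 (4.45, SE 0.30) and Cyp4a14 (4.15, SE 0.58). The targeted gene Myc, on the probe with 10 spots, read 0.23 to 0.90 on the 4 MycF/F arrays and -1.20 to -0.22 on the 8 arrays with ERT2-Cre. On Wy-14643 it was lower with ERT2-Cre on 2 of its 3 probes (-1.85 and -1.83, limma adjusted p = 0.00385 and 0.00614) and differed by -0.57 on the third (adjusted p = 0.295). Where these probes lie within Myc was not determined, so none of them shows the deletion.

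Several hepatocyte markers moved with the diet. All 6 measured hepatocyte markers were well above background on all 12 arrays. The same held for all tested markers of Kupffer cells and macrophages (8), endothelium (7), cholangiocytes (7) and stellate cells (6). It also held for those of lymphocytes (4), erythroid cells (3) and kidney (2), so detection alone does not single out hepatocytes. Alb (albumin), Ttr and Tat fell on Wy-14643 in both genotypes, Alb by 1.39 in each, while Hnf4a differed by 0.02 in each. Over the 2 hepatocyte markers with a value on all 12 arrays, the mean ran from 1.21 to 1.39 in MycF/F,ERT2-Cre livers on control diet and from -0.12 to 0.84 on Wy-14643, and was 1.35 in the MycF/F control and 0.39 to 0.62 in MycF/F livers on Wy-14643. Of 8 Kupffer cell and macrophage markers, 6 fell in MycF/F,ERT2-Cre livers and 3 of 7 tested in MycF/F livers, and the mean of the 3 with a value on all arrays ran from 0.06 to 0.73 on control diet and from -0.39 to -0.02 given Wy-14643 in MycF/F,ERT2-Cre livers. Calls in MycF/F,ERT2-Cre livers were 1 higher (Sox9) and 1 lower (Spp1) of 7 cholangiocyte markers, 2 lower of 7 endothelial, 3 lower of 6 stellate cell, 2 lower of 4 lymphocyte, 0 of 3 neutrophil, 2 lower of 3 erythroid, 0 of 2 kidney and 1 higher of 2 intestinal markers. These calls are at a limma adjusted p under 0.05, which 16.2% of all 25128 genes in that comparison passed (8.89% higher, 7.34% lower). At an unadjusted p under 0.05 limma passed 7064 of them. In MycF/F livers 6.51% of all genes were called, 3.18% lower. The kidney gene Umod was well above background on 0 arrays. The part of these markers in the results on the transporters was not tested.

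In MycF/F,ERT2-Cre livers the RNA of 4 uptake carriers was lower on the Wy-14643 diet, Slc22a7 and Slco1a4 by more than 9-fold each. Abcc4 was higher by 3.30-fold and Abcb4 by 1.52-fold. Limma called 6 of the 8 members it could test (2 higher and 4 lower), at an adjusted p under 0.05. Over all 25128 genes tested 16.2% were called, 8.89% higher and 7.34% lower. The median of the 8 members was -0.17, against 0.03 over all genes. In 6 of the 8 no control array overlapped an array on Wy-14643, as in 17.2% of the 21244 genes with a value on every array of both diets. Slc10a1, among the 6, had only 3 values on Wy-14643 and is not part of that share. RNA came from whole liver, in which fewer hepatocytes and less RNA per hepatocyte cannot be told apart.

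**Figure D1:**
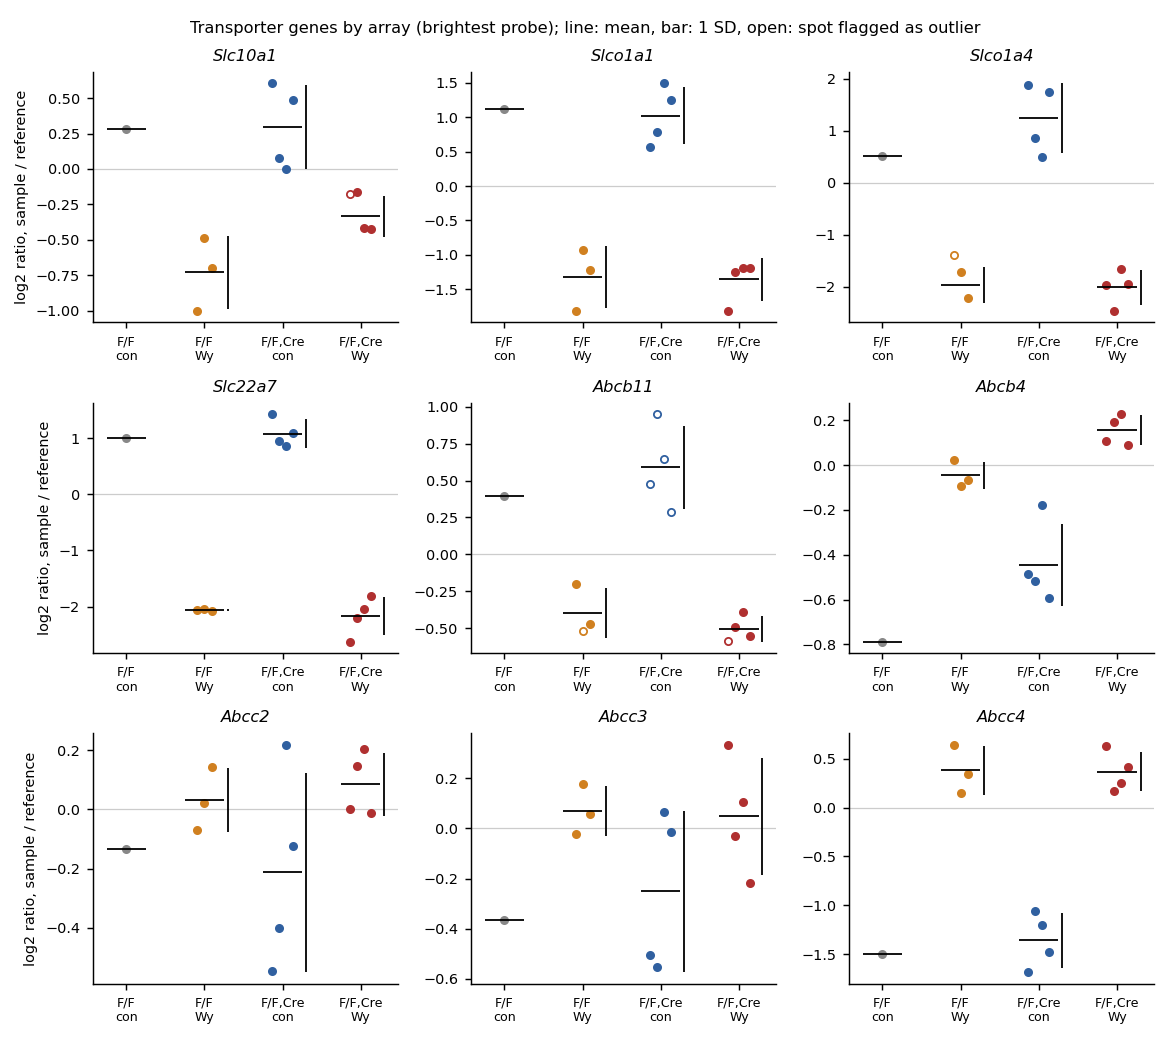
Log2 ratio to the reference (vertical axis) of the brightest probe of each of the 9 measured genes, on each array, for MycF/F (F/F) and MycF/F,ERT2-Cre (F/F,Cre) livers on control diet (con) or Wy-14643 (Wy). Lines are group means, bars 1 SD and open points spots flagged as outliers (for Abcb11 all values, means and SDs include flagged spots). Slc22a7 lies between 0.85 and 1.43 on the control arrays and between -2.62 and -1.82 on the Wy-14643 arrays. The diets overlap for Abcc2 and Abcc3 in MycF/F,ERT2-Cre livers.

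Slc22a7, the carrier of small organic anions, had log2 ratios of 1.43, 0.96, 0.85 and 1.09 in MycF/F,ERT2-Cre livers on control diet and of -2.62, -2.20, -2.05 and -1.82 on Wy-14643. The 2 diets did not overlap on any array. The difference was -3.26 (SE 0.16, 95% CI -3.60 to -2.91, 9.55-fold lower, limma adjusted p = 2e-07), and -4.27 with the deposited log ratios.

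Slco1a4 (OATP1A4), a carrier of bile acids, steroid conjugates and drugs, read 1.87, 0.87, 0.49 and 1.74 on control diet. With Wy-14643 it read -1.97, -2.47, -1.66 and -1.95. Control values were spread over more than 1 log2 unit, yet the lowest of them lay more than 2 units above the highest on Wy-14643. The difference was -3.26 (SE 0.29, 9.57-fold lower, adjusted p = 2.12e-05), and -4.54 with the deposited log ratios.

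Slco1a1 (OATP1A1), the related carrier encoded next to it, read 0.57, 0.79, 1.49 and 1.25 on control diet and -1.81, -1.24, -1.18 and -1.18 on Wy-14643. The diets did not overlap, and the difference was -2.38 (SE 0.23, 5.21-fold lower, adjusted p = 2.28e-05). On Wy-14643 replicate 1, the lowest array, the spot was not well above background. With the deposited log ratios the difference was -4.81 (adjusted p = 0.0036), more than 1.5 times as large. Hybridization between the related Slco1a genes was not assessed, and Slco1a5, from the same cluster, differed by 0.00 (SE 0.10) by diet.

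Slc10a1 (NTCP), the sodium-coupled carrier of conjugated bile acids, moved less. It read 0.61, 0.08, 0.00 and 0.49 on control diet and -0.17, -0.42 and -0.42 on replicates 2, 3 and 4 on Wy-14643, where replicate 1 was flagged. The diets did not overlap, but the gap between them was far narrower than for the other uptake carriers. The difference was -0.63 (SE 0.17, adjusted p = 0.0237). This call was lost without control replicate 1 (-0.53, adjusted p = 0.0509) and without control replicate 4 (-0.57, adjusted p = 0.063). On Wy-14643 it was lost without replicate 3 (-0.59, adjusted p = 0.0836) and without replicate 4 (-0.59, adjusted p = 0.0889). A slide block also ended it (-0.68, adjusted p = 0.0504), as did a replicate block (-0.63, adjusted p = 0.0794). It was lost as well with median centring (-0.39, adjusted p = 0.614), with the Cy5 channel alone (-1.70, adjusted p = 0.096) and with the deposited log ratios (-0.59, adjusted p = 0.0624).

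**Figure D2:**
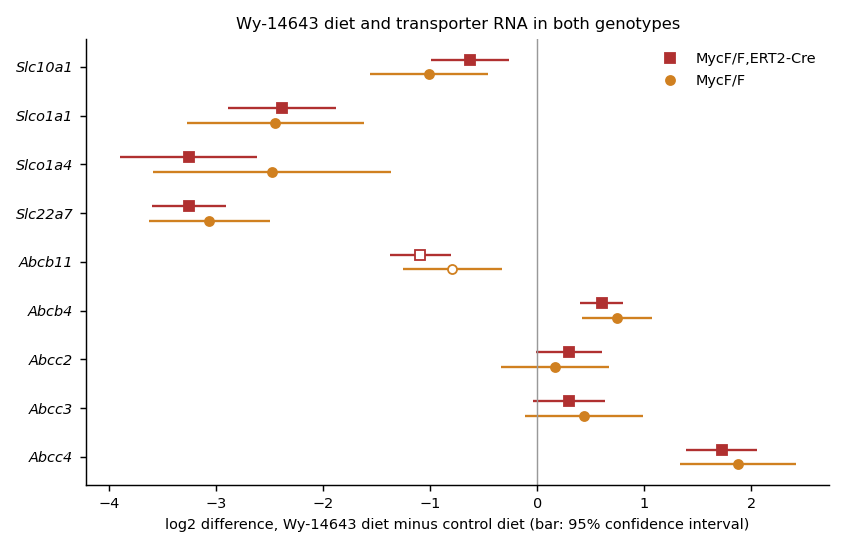
Difference of log2 ratios between Wy-14643 and control diet (horizontal axis) with 95% confidence intervals, for each gene in MycF/F,ERT2-Cre (squares) and MycF/F livers (circles, against 1 control array). Open symbols of Abcb11 include spots flagged as outliers. The 4 uptake carriers lie between -3.26 and -0.63, and Abcb4 and Abcc4 between 0.60 and 1.87.

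Of the genes for export into bile, Abcb4 was called higher and Abcc2 was not called. Abcb4, the phospholipid flippase, read -0.49, -0.52, -0.18 and -0.59 on control diet in MycF/F,ERT2-Cre livers and 0.11, 0.19, 0.23 and 0.09 on Wy-14643, with no overlap. The difference was 0.60 (SE 0.09, 95% CI 0.40 to 0.80, 1.52-fold higher, adjusted p = 0.000729). It was 0.92 (adjusted p = 0.0263) when arrays were only centred on their medians. A second, dimmer Abcb4 probe read -0.48, 0.17 and -0.42 on control replicates 2, 3 and 4 and 0.22, 0.75, 0.50 and 0.59 on Wy-14643, a difference of 0.76 (SE 0.17, adjusted p = 0.0101). Control replicate 3 was the highest control array on both probes, and when flagged spots were kept throughout, the second probe's groups overlapped, with control replicate 3 at 0.169 and Wy-14643 replicate 1 at 0.162.

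Abcb11, the bile salt export pump, could not be tested in MycF/F,ERT2-Cre livers after the removal of flagged spots, because all 4 control spots were flagged as outliers. All 12 of its spots were well above background, at 106 to 329 times background in Cy5. With flagged spots kept it read 0.48, 0.95, 0.65 and 0.29 on control diet and -0.59, -0.49, -0.39 and -0.55 on Wy-14643. The groups lay apart, and the difference was -1.09 (SE 0.13, 2.14-fold lower, adjusted p = 0.000107) in a fit in which 16.1% of all genes were called. That call was lost with the Cy5 channel alone (-0.97, adjusted p = 0.0682) and with median centring (-0.91, adjusted p = 0.149). Keeping flagged spots was chosen after the data were seen.

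Abcc2, the exporter of conjugates, read -0.55, -0.40, 0.22 and -0.12 on control diet and 0.00, 0.15, 0.20 and -0.01 on Wy-14643. Control replicate 3 was the highest of these 8 arrays and the other controls the lowest, so the groups overlapped. The difference was 0.30 (SE 0.14, 95% CI -0.01 to 0.61, adjusted p = 0.192). Without control replicate 3 it was 0.44 (SE 0.11, adjusted p = 0.0187).

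The efflux pumps facing the blood differed in size of response. Abcc4, a pump for bile acids, steroid sulphates and cyclic nucleotides, read -1.68, -1.06, -1.21 and -1.48 on control diet and 0.62, 0.17, 0.25 and 0.42 on Wy-14643. Every array on Wy-14643 was above the reference and every control array below it by more than 1 unit. The difference was 1.72 (SE 0.15, 95% CI 1.39 to 2.05, 3.30-fold higher, adjusted p = 1.04e-05), and 2.71 (adjusted p = 3.81e-05) with the deposited log ratios. Its second probe read -1.26, -0.56, -0.85 and -1.25 on control diet and 0.84, 0.07, 0.11 and 0.09 on Wy-14643. There Wy-14643 replicate 1 was well above the other arrays of its group, and the difference was 1.26 (SE 0.20, adjusted p = 0.000856).

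Abcc3, which exports glucuronides, read -0.50, -0.55, 0.07 and -0.02 on control diet and 0.33, -0.03, 0.11 and -0.22 on Wy-14643. Its groups overlapped, and the difference of 0.30 (SE 0.15, 95% CI -0.04 to 0.64) did not pass (adjusted p = 0.233). The second Abcc3 probe differed by 0.47 (SE 0.18, adjusted p = 0.0985), with overlapping groups. Of the 12 probes 11 could be tested and 8 were called (4 higher and 4 lower), against 16.6% of all 31696 probes tested. In MycF/F livers, where 6.61% of all probes were called, the second probe of Abcb4 differed by 0.97 (SE 0.26, adjusted p = 0.0475; 0.96 and 0.0661 with flagged spots kept), that of Abcc4 by 1.71 (SE 0.32, adjusted p = 0.00677) and that of Abcc3 by 0.72 (SE 0.29, adjusted p = 0.206).

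**Figure D3:**
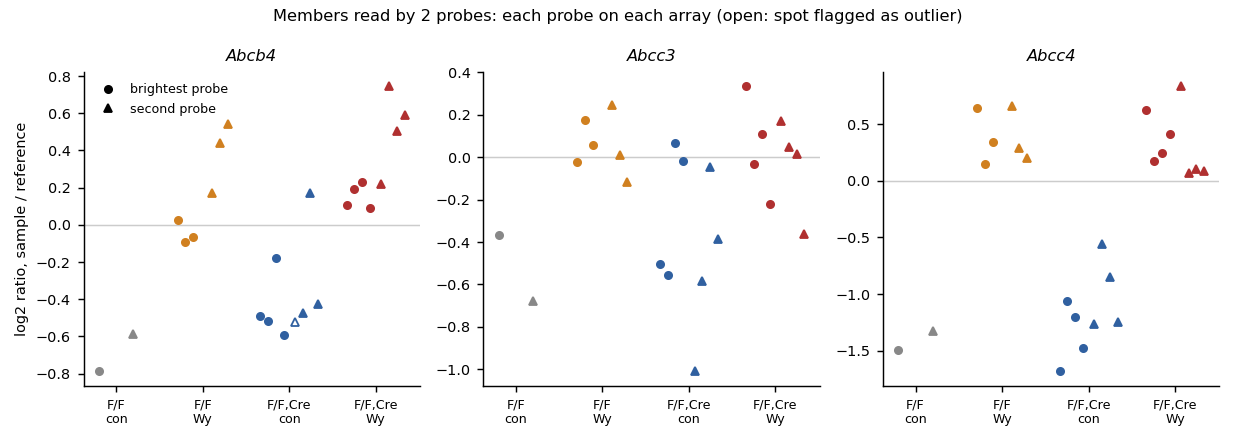
Log2 ratio to the reference (vertical axis) of the brightest probe (circles) and the second probe (triangles) of Abcb4, Abcc3 and Abcc4 on each array, by genotype and diet. The open symbol is a spot flagged as an outlier. Both Abcc4 probes lie above 0 on all Wy-14643 arrays and below -0.5 on all control arrays, while both Abcc3 probes overlap between diets in MycF/F,ERT2-Cre livers.

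Each slide held 4 arrays, and the differences of 5 of the 6 called genes had the same direction on all 3 slides, with Slc10a1 having values on slides 2 and 3 only. Within slides 1, 2 and 3 the diets differed in MycF/F,ERT2-Cre livers by -3.82, -3.05 and -3.02 for Slc22a7, by -3.35, -2.96 and -3.55 for Slco1a4 and by -2.49, -2.74 and -2.43 for Slco1a1. Abcc4 differed by 2.00, 1.38 and 1.81 and Abcb4 by 0.61, 0.37 and 0.75. Abcb11, with flagged spots kept, differed by -1.30, -1.14 and -0.76. Slc10a1 differed by -0.17 on slide 2 and -0.91 on slide 3, with no value on slide 1. Abcc3 differed by 0.86 on slide 1, -0.10 on slide 2 and -0.04 on slide 3, and without slide 1 its difference was -0.07 (adjusted p = 0.734). Abcc2 differed by 0.48, -0.07 and 0.22, and by 0.06 without slide 1 (adjusted p = 0.796). With slide as a block the differences were -3.30 for Slc22a7, -3.27 for Slco1a4, -2.535 for Slco1a1, 0.60 for Abcb4, 1.77 for Abcc4, 0.24 for Abcc2 and 0.27 for Abcc3, each on the same side of the threshold as without it.

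**Figure D4:**
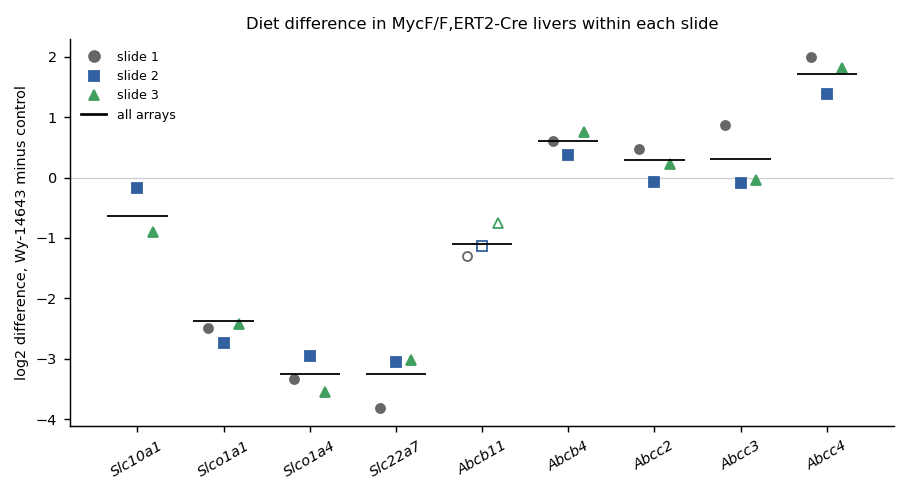
Difference of log2 ratios between Wy-14643 and control diet in MycF/F,ERT2-Cre livers (vertical axis) within each of the 3 slides (points) and over all arrays (lines), for the 9 measured genes. Abcb11 (open points) includes spots flagged as outliers and Slc10a1 has no value on slide 1. Abcc3 is at 0.86 on slide 1 and near 0 on slides 2 and 3.

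In MycF/F livers the same question was asked with 3 arrays on Wy-14643 against the lone control array, so the control is assumed to vary like the other groups. Limma called 6 of 9 members (2 higher and 4 lower), where 6.51% of 24899 genes were called, 3.32% higher and 3.18% lower. The median of the 9 members was -0.72, against -0.00287 over all genes.

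Slc22a7 read 1.00 in the MycF/F control and -2.06, -2.04 and -2.08 on Wy-14643, a difference of -3.06 (SE 0.26, adjusted p = 3.5e-05). Slco1a1 read 1.13 against -1.82, -0.92 and -1.22, a difference of -2.45 (SE 0.38, adjusted p = 0.00193). For both genes the lone control lay within the range of the 4 controls with ERT2-Cre. Slco1a4 read 0.50 against -1.72 and -2.22 on replicates 2 and 3, with replicate 1 flagged, and differed by -2.48 (SE 0.51, adjusted p = 0.0129). Without Wy-14643 replicate 3, which left 1 array, it differed by -2.23 (adjusted p = 0.0692). Slc10a1 read 0.28 against -1.003, -0.49 and -0.70 and differed by -1.01 (SE 0.25, adjusted p = 0.0347). That call was lost without Wy-14643 replicate 1 (-0.88, adjusted p = 0.0775) or 3 (-1.03, adjusted p = 0.075), and, through the shared spread, without Wy-14643 replicate 3 or 4 of the other genotype (adjusted p = 0.055 and 0.0552).

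Abcc4 read -1.49 in the MycF/F control and 0.64, 0.15 and 0.35 on Wy-14643, a difference of 1.87 (SE 0.25, 3.66-fold higher, adjusted p = 0.000719). Abcb4 read -0.79 against 0.02, -0.09 and -0.07 and differed by 0.74 (SE 0.15, adjusted p = 0.01). For both genes each Wy-14643 array lay above the lone control, but so it did for Abcc2 and Abcc3, which were not called. How often this occurs over all genes was not counted. Abcb11 read 0.41 against -0.16 and -0.47 on replicates 1 and 3 and differed by -0.72 (SE 0.18, adjusted p = 0.0603). With flagged spots kept, where 6% of genes were called, it differed by -0.79 (adjusted p = 0.0495), and this was lost without any 1 of 8 arrays, at adjusted p from 0.0515 to 0.125: Wy-14643 replicate 2 or 3 of MycF/F, control replicate 1 or 3 of MycF/F,ERT2-Cre, or any of the 4 Wy-14643 replicates of MycF/F,ERT2-Cre. It was also lost with slide as a block (-0.81, adjusted p = 0.0569), with the replicate number as a block (-0.83, adjusted p = 0.0574), with median centring (-0.66) and with Cy5 alone (-0.50). Abcc2 differed by 0.16 (95% CI -0.34 to 0.67, adjusted p = 0.85) and Abcc3 by 0.44 (95% CI -0.11 to 0.99, adjusted p = 0.447). Slide 2 alone held both MycF/F groups, and within it Slc22a7 differed by -3.04, Slco1a1 by -2.05, Slco1a4 by -2.23, Slc10a1 by -0.77, Abcc4 by 1.64 and Abcb4 by 0.70. With slide as a block Slc22a7 differed by -3.14, Slco1a1 by -2.15, Slco1a4 by -2.72, Abcc4 by 1.79 and Abcb4 by 0.82, all still called, and Slc10a1 by -0.97 (adjusted p = 0.088). With the replicate number as a block Slco1a4 (-1.835, adjusted p = 0.0839) and Slc10a1 (-0.99, adjusted p = 0.0899) were not called.

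Fewer members were called in MycF/F livers under other ways of scaling. With median centring in place of loess 2 of the 9 members were called (0 higher, 2 lower), with the Cy5 channel alone 1 (0 higher, 1 lower) and with the deposited log ratios 3 (1 higher, 2 lower). Calls over all genes fell as well under these settings, from 1620 to 184, 256 and 1048. With the deposited log ratios the differences were larger, at -3.89 for Slc22a7, -3.34 for Slco1a4, -3.45 for Slco1a1 (adjusted p = 0.234) and 2.88 for Abcc4. Slc22a7 was called under each of the 24 alternatives run in this comparison, at differences from -3.89 to -2.53.

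The arrays without and with ERT2-Cre did not differ by the test in any member, on either diet. On Wy-14643 limma called 0 of 9 members, against 0.0676% of 25142 genes (0.0159% higher and 0.0517% lower), and 1 member, Slc10a1, had an unadjusted p under 0.05. Its levels of -0.17, -0.42 and -0.42 with ERT2-Cre and -1.003, -0.49 and -0.70 without it did not overlap, and the difference was 0.39 (95% CI 0.00 to 0.79, adjusted p = 0.584). Within slides 2 and 3 it was 0.32 and 0.28. The brightest Abcb4 probe did not overlap either, and its difference was 0.20 (95% CI -0.02 to 0.42, adjusted p = 0.667), with 0.08, 0.29 and 0.22 within slides 1, 2 and 3. Of the 22044 genes with a value on every array of these 2 groups 10.7% did not overlap, a share that leaves out Slc10a1 for its missing value. The second Abcb4 probe did overlap. The intervals of the other members were widest for Slco1a4 (-0.83 to 0.74) and Slco1a1 (-0.58 to 0.51). For Slc22a7 the interval was -0.49 to 0.26, for Abcc4 -0.37 to 0.34, for Abcc3 -0.39 to 0.34, for Abcc2 -0.28 to 0.39 and for Abcb11 -0.47 to 0.15.

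On control diet, with 1 MycF/F array, 0 of 8 members and 0% of genes were called by limma, at adjusted p = 1 for each member. The unadjusted p was under 0.05 for 440 genes, among them Abcb4, which differed by 0.34 (95% CI 0.03 to 0.66), and by 0.61 on slide 2, the slide that held both groups. Slco1a4 differed by 0.74 (95% CI -0.28 to 1.75) over all arrays and by -0.01 on slide 2. The difference of the diet effects between genotypes was called in 0 of 8 members and 0% of genes (538 genes and 0 members at an unadjusted p under 0.05). For Slc22a7 it was -0.19 (95% CI -0.86 to 0.47), for Abcc4 -0.15 (95% CI -0.78 to 0.48) and for Slco1a4 -0.78 (95% CI -2.07 to 0.50), and these intervals allow differences of either sign.

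Among 32 other liver transporters that could be tested, 5 were called higher and 8 lower in MycF/F,ERT2-Cre livers (median -0.09, all genes 0.03), where 8.89% of all genes were called higher and 7.34% lower. In MycF/F livers 3 were called higher and 7 lower (median -0.09, all genes -0.00287), against 3.32% and 3.18% of all genes. Slc10a2 (ASBT), the sodium-coupled bile acid carrier known from ileum and bile ducts, fell by 2.67 (SE 0.21, adjusted p = 3.8e-06) and by 2.53 (SE 0.34, adjusted p = 0.000769), and its second probe fell by 2.28 (SE 0.20) in MycF/F,ERT2-Cre livers. Slc29a1, a nucleoside carrier, fell by 1.32 (SE 0.21, adjusted p = 0.0011) in MycF/F,ERT2-Cre and by 1.21 (SE 0.31, adjusted p = 0.042) in MycF/F livers. The lower calls in MycF/F livers include Slc22a28 (-1.26, adjusted p = 0.0427), which had a value on 1 array of each diet, so that its spread rests on the 2 arrays of another group and the call carries little weight. Slc16a1 (MCT1), which carries lactate and ketone bodies, rose by 2.05 (SE 0.10, adjusted p = 7.04e-07) and by 2.26 (SE 0.14, adjusted p = 1.97e-05). Abcg2 (BCRP), a canalicular exporter of drugs and sulphates, rose by 1.39 (SE 0.11, adjusted p = 6.08e-05; 2 control and 3 Wy-14643 arrays) and by 1.71 (SE 0.14, adjusted p = 0.000317).

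**Figure D5:**
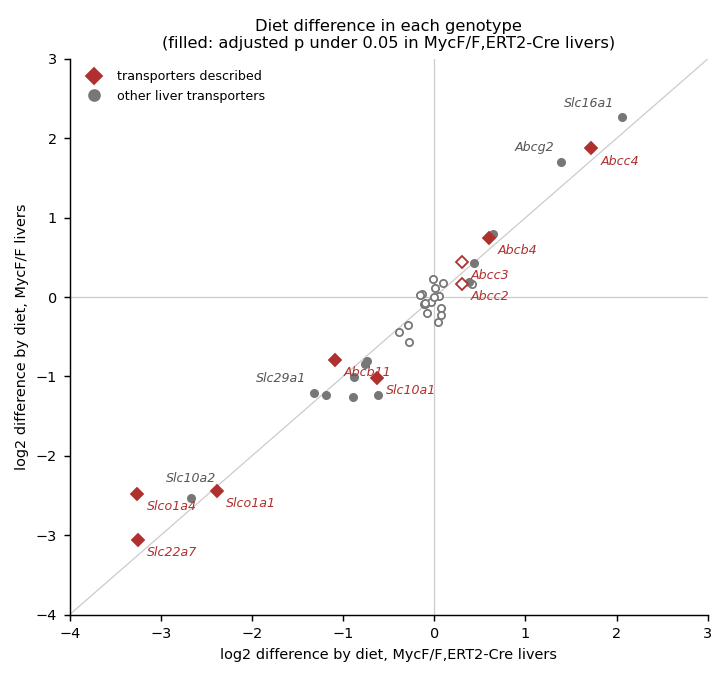
Difference of log2 ratios between Wy-14643 and control diet in MycF/F,ERT2-Cre (horizontal axis) and MycF/F livers (vertical axis) for the 9 measured genes (diamonds; Abcb11 with flagged spots kept) and 32 other liver transporters (circles). Filled symbols had an adjusted p under 0.05 in MycF/F,ERT2-Cre livers. Slc10a2 is at -2.67 and -2.53, beside Slco1a1, and Slc16a1 at 2.05 and 2.26, beyond Abcc4.

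Of 20 nuclear receptors and factors known to act on these genes that could be tested, 1 was called higher and 7 lower in MycF/F,ERT2-Cre livers (median -0.10). In that comparison 8.89% of all genes were called higher and 7.34% lower (median 0.03). In MycF/F livers 0 were called higher and 4 lower (median -0.09), against 3.32% and 3.18% of all genes (median -0.00287). Esr1, estrogen receptor α, fell, with differences of -1.43 (SE 0.14, adjusted p = 2.44e-05) and -1.497 (SE 0.23, adjusted p = 0.00182). Onecut1 (HNF6), a hepatocyte factor, fell by 0.95 (SE 0.17, adjusted p = 0.00234) and by 1.52 (SE 0.25, adjusted p = 0.00368). Nr1i3 (CAR), the xenobiotic receptor, rose by 0.70 (SE 0.11, adjusted p = 0.000695) in MycF/F,ERT2-Cre livers. Of 13 scaffold and trafficking proteins 2 were called higher and 3 lower in MycF/F,ERT2-Cre livers, where 16.2% of all genes were called either way, and 1 higher and 1 lower in MycF/F livers, where 6.51% were. Slc9a3r1 (NHERF1), a PDZ scaffold of apical transporters, fell by 0.92 (SE 0.12, adjusted p = 0.00026) and by 1.15 (SE 0.20, adjusted p = 0.00401), and Ezr, which links such scaffolds to actin, fell by 0.41 (SE 0.13, adjusted p = 0.045) in MycF/F,ERT2-Cre livers. Myo5b, a motor of canalicular recycling, rose by 0.57 (SE 0.18, adjusted p = 0.0456) and by 1.07 (SE 0.29, adjusted p = 0.0481) on its brightest probe. Rab11a, of the same recycling route, rose by 0.38 (SE 0.10, limma adjusted p = 0.0273) in MycF/F,ERT2-Cre livers. That value is of its brightest probe, on 2 control and 4 Wy-14643 arrays. Myo5b has 3 other kept probes and Rab11a has 2, whose values are not given here. In the 2 comparisons between genotypes and in the difference of the diet effects, limma called 0 genes of these lists.

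As a description of likeness, log2 ratios were correlated over the arrays with every gene or unnamed probe that had a value on all 12. Abcc4 was most like Josd1 (Pearson r 0.993), Rbpms (0.989) and Aptx (0.987), over 12 arrays and 21019 genes. Abcb11, with flagged spots kept, was most like Slc7a7 (0.980), Cfl1 (0.980) and Emp3 (0.972). Slc10a1, over its 11 arrays, was most like an unnamed probe (0.981), Gpc1 (0.974) and an unnamed transcript (0.969). All arrays share the reference, and the diets lie apart for all 3 of these transporters.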

How the data were processed

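The deposited spot tables of the 12 arrays hold, for each spot, the median intensity in both channels and of the background around it; Agilent Feature Extraction, version 11.0.1.1 by the headers, made them. That software's own log10 ratio of Cy5 to Cy3, with its background and dye corrections per the file headers, is also deposited and was used only as an alternative. The array design's build differs from the RefSeq assembly used for names (GRCm38.p6), so no probe was placed on the genome. Of 17440 distinct RefSeq mRNA accessions 16792 matched a symbol.

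The raw median signals were background-corrected by limma 3.58.1 (under R 4.3.3, with statmod 1.5.0 and data.table in version 1.17.8), using normexp with an offset of 50, and log2 ratios were loess-normalized within arrays, control and outlier-flagged spots having no weight. Flagged spots were left out and spots of a probe averaged. Probes well above background in Cy5 on at least 3 arrays were kept (31861), and the brightest kept probe stood for a gene (25270 genes or unnamed probes). Member symbols came from the set, and each was named in every comparison. From each context list the genes called with the largest change, at most 2 each way, were named. Further features were named after their values were seen: Alb, Ttr, Tat, Hnf4a, Sox9, Spp1, Umod, Slco1a5.

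Group means entered a single lmFit and eBayes fit of the 12 arrays, which left 8 residual degrees of freedom. The tests were two-sided, with Benjamini-Hochberg adjustment over all genes of a comparison. A missing value drops that array for that gene. The fit was tested on simulated data with known changes. Alternatives were scaling, channel, deposited ratios, background, filters, probe choice, slide or replicate blocks, array weights and left-out arrays. Keeping flagged spots for every alternative of Abcb11, and the fits of single probes, were added after the data were seen. The genes and lists were chosen with earlier results of these data known. Promoter windows and motifs were read from the RefSeq promoter table with Python.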

Additional observations from a re-analysis of the deposited data

Results flagged for a closer look

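In the MycF/F,ERT2-Cre group on Wy-14643, replicate 1 read Slco1a1 at -1.81, apart from the other 3 arrays, which lay between -1.24 and -1.18. The gap was 0.905 of the group's range, above Dixon's 95% critical value for 4 samples, and on this array the spot was not well above background. The same array read Acot1, a check of the diet, at 1.41 against 0.80 to 0.90 on the others (gap 0.842 of the range). In all 34 groups of 4 values from 24 genes were examined, 2 stood apart in this way, and chance gives about 1 in 20.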

How the results depend on the processing

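Of 1110 single values of the transporters recomputed under alternatives, 1047 kept their side of the threshold or, within slides, moved by less than the spread between replicates. These 1047 include 60 values that changed sign while past the threshold in neither fit. Another 30 lost and 7 gained a call, 26 values within slides moved by more than the replicate SD, and 0 called values changed sign. The 1047 include values of the 3 comparisons in which the main fit called 0 members. Leaving out an array of a group not compared also leaves the difference itself unchanged. The 1047 therefore overstate how stable the calls were. Members called in MycF/F livers went from 6 to 2 with median centring, 1 with Cy5 alone and 3 with the deposited log ratios. Leaving out 1 array gave 5 to 7 calls in MycF/F,ERT2-Cre and 4 to 7 in MycF/F livers, and 7 to 10 of the members' probes. It gave 0 in the comparisons between genotypes and in their interaction. Over all genes, the calls in MycF/F,ERT2-Cre livers went from 4079 to 831 with median centring and 1285 with Cy5 alone. In MycF/F livers they went from 1620 to 184, 256 and, with the deposited log ratios, 1048, and to 2808 without slide 1. Between genotypes on Wy-14643 they went from 17 to 0 with median centring, Cy5 alone, the deposited log ratios or the replicate block, to 110 without slide 1, 340 with array weights, 66 with slide as a random and 34 as a fixed block, 49 with only the groups compared, 39 with flagged spots kept and 27 with the mean of all probes, and to between 0 and 27 when single arrays were left out. Same-numbered samples of different groups deviated from their group means with r from -0.07 to 0.41 over 10 pairs (median 0.157). Other pairs ran from -0.415 to 0.381 (median -0.109). Pairs on the same slide were all positive, at 0.0871 to 0.414, and most same-numbered pairs shared a slide. Not every sample correlated best with its own number, so the numbers do not show a pairing. With the replicate number as a block 5 members were called in MycF/F,ERT2-Cre and 4 in MycF/F livers (4312 and 1667 genes), with Slc10a1 lost in both and Slco1a4 in the second, 7 of the members' probes, and 0 members in the other 3 comparisons. The cause of these changes was not tested. Dim spots limit Slco1a1, Slco1a4 and Slc22a7 on Wy-14643, at 1.5 to 4.9, 3.1 to 4.7 and 3.6 to 7 times background in Cy5. The brightest Abcc4 probe was similarly dim on control diet, at 3.2 to 5.6 times background. The lone MycF/F control array limits every comparison that uses it. MycF/F livers cannot be compared by diet without it.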
